A study of Mus musculus with 6 samples.

Results

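The genes described here encode the proteins that join the contractile apparatus of a muscle fiber to its membrane, the sarcolemma, and to the matrix around it, together with proteins of the nuclear envelope. Mutations in many of them cause muscular dystrophies. The members were the intervals of accessible chromatin that overlap the body of 1 of 33 such genes, or that lie within 1 kb of 1 of its transcription start sites (TSSs), in the GENCODE vM1 annotation of the mm9 mouse genome. Of the 39768 intervals of the whole table, 137 met this rule. The study's methods describe a larger union of intervals than this table holds, and every share of all intervals given here refers to the table. They fell in 32 of the 33 genes, since no interval fell to *Cav3*, which encodes the muscle caveolin. An interval within 1 kb of a TSS is called a promoter interval, and 80 member intervals in 28 genes were of this kind.

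Accessibility was measured by ATAC-seq, in which the Tn5 transposase cuts DNA that nucleosomes leave exposed, so that fragment ends pile up in open chromatin. There were 3 CTL libraries and 3 libraries labelled H2A.Z dKO, all from C57BL/6 mice aged 7 weeks in which both genes of the histone variant H2A.Z, H2A.Z-1 and H2A.Z-2, were floxed on both alleles (flox/flox). The H2A.Z dKO mice also carried the HSA-Cre transgene, whose promoter is active in post-mitotic muscle fibers, so that nuclei of other cells of the muscle keep both genes, whereas CTL mice lacked Cre. The labels name the tibialis anterior muscle and nuclei obtained by ultracentrifugation, and the study's methods describe hind limb muscles. Nothing in the labels says that the 3 libraries of a group came from different animals, so p-values measure the spread between libraries only.

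Fragment ends in all intervals summed to between 3520008 and 6117245 per library. The share of them in promoter intervals was 77.5% in H2A.Z dKO replicate 1 and 73.7% to 75.4% in the other libraries, so that this library stood apart. In the segment of *H2afz* (H2A.Z-1) flanked by loxP sites, at chr3:137528097-137529104, 79, 69 and 33 ends were counted in CTL and 57, 52 and 64 in H2A.Z dKO. In counts per 1000000 ends in all intervals of the library (CPM), that is 12.4 ± 2.80 and 11.3 ± 1.52 (SD, n = 3), and the groups overlapped (exact permutation test, two-sided, p = 0.6, where the smallest possible p is 0.1). The segment, in which only 2 intervals lie, thus does not tell the groups apart in these files, and the text speaks of libraries labelled H2A.Z dKO. Of 12 marker genes of muscle fibers, 10 held an interval (*Mylpf* and *Myh2* held none). In CTL they ran from *Myh4* at 3.36 ± 0.748 CPM and *Myh1* at 6.81 ± 2.43 CPM to *Tnni2* at 155 ± 10.99 CPM, with *Acta1* at 119 ± 18.3 CPM (SD, n = 3). Their summed CPM overlapped between CTL (626 to 793 CPM) and H2A.Z dKO (651 to 872 CPM). Markers of other cells also held intervals, namely 6 of 8 endothelial, 4 of 6 fibroblast, 2 of 4 satellite cell, 2 of 4 smooth muscle, 2 of 4 Schwann cell and 1 of 7 macrophage genes. The endothelial sum was 268 to 304 CPM in CTL and 239 to 249 CPM in H2A.Z dKO, with no overlap. The sums of the other lists overlapped between CTL and H2A.Z dKO (fibroblast 82.9 to 101 and 99.1 to 106 CPM, satellite cell 32.2 to 50.8 and 49.0 to 54.7, smooth muscle 46.3 to 51.1 and 31.5 to 49.8, Schwann cell 69.8 to 79.3 and 71.9 to 76.1, macrophage 3.27 to 7.34 and 3.08 to 3.41). In such a mixture of nuclei, fewer nuclei of a type and less accessibility per nucleus cannot be told apart.

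Dystrophin (*Dmd*) binds actin filaments under the sarcolemma and anchors them, through dystroglycan (*Dag1*), to laminin outside the fiber. Sarcoglycans and sarcospan sit beside dystroglycan in the membrane, and syntrophins and dystrobrevin bind dystrophin inside. The products of *Pomt1*, *Pomt2* and *Large* take part in building the sugar chain by which dystroglycan holds laminin, and that of *Pomgnt1* acts on its mannose-linked sugars. H2A.Z is a histone variant found in the nucleosomes that flank the TSSs of active genes, which is why promoter intervals are of interest here.

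Of the promoters of member genes, 5 are shown first. RefSeq gives 37 promoters (250 bases before the TSS and 50 after it, GRCm38.p6) for 26 of the 33 genes, and all 37 were found as exact matches in mm9. Of these, 25 hold at least part of a member interval. Those shown run from 250 bases before the RefSeq TSS to 30 after it, 5′ to 3′ on the strand of the gene, with the bases inside a member interval in capitals. They are both RefSeq promoters of *Dmd*, which differ in GC content (44.3% and 61.8%), the strongest promoter of the dystrophin complex (*Dag1*), the promoter with the most positive fold change (*Capn3*) and that of the muscle intermediate filament desmin (*Des*). For *Dmd*, the GENCODE annotation lists 14 TSSs.
*Dmd*, full-length transcripts, chrX:80193959-80194238, plus strand of mm9: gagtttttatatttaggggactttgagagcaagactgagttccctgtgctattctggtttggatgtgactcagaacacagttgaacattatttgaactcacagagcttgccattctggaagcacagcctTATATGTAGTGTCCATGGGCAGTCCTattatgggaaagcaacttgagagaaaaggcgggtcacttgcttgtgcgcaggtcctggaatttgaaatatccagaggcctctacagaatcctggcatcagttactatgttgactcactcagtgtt
*Dmd*, short transcripts, chrX:82293384-82293663, plus strand of mm9: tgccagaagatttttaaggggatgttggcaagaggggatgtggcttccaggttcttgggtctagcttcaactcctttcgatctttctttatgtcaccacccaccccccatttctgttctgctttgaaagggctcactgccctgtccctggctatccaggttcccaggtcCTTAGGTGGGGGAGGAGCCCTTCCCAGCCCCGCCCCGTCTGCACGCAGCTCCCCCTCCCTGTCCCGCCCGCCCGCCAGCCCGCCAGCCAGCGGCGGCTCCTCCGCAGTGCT
*Dag1*, chr9:108166260-108166539, minus strand of mm9: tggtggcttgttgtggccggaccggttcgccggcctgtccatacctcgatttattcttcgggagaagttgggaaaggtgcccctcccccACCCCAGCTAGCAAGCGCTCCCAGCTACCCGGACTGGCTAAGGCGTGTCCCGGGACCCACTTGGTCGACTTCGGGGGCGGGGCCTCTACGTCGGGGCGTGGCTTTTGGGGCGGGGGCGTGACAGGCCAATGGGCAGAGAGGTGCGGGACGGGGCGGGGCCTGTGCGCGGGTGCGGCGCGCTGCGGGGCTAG
*Capn3*, chr2:120289079-120289358, plus strand of mm9: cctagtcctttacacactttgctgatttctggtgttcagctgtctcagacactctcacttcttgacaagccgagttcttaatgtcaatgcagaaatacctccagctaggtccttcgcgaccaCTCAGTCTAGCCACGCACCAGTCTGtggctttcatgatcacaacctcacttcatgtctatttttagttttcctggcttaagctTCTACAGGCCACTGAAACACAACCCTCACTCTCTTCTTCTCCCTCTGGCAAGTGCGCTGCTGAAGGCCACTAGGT
*Des*, chr1:75356617-75356896, plus strand of mm9: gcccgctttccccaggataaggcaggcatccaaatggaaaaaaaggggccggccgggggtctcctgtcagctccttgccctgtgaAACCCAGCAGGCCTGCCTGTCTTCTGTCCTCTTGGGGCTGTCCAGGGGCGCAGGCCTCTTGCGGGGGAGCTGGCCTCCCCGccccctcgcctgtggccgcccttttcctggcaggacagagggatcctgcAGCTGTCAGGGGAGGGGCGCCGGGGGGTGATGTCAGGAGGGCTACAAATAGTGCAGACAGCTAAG

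The motifs searched, on both strands, were the E-box (CANNTG), the GC box (GGGCGG), the CCAAT box (CCAAT), the TATA box (TATAAA), and the MEF2 and CArG elements, and the shares given for other promoters refer to the same 280 bases. In the promoter of full-length *Dmd*, a CArG element spans positions 153 to 162 from the 5′ end, so that the last 3 capitals fall inside it, and no GC box was found. A CArG element occurs in 3 of the 37 member promoters (8.11%) and in 1.56% of the 32851 RefSeq promoters. In the promoter of the short *Dmd* transcripts, 3 GC boxes start at positions 199, 233 and 237, all in capitals, and the last 2 of them overlap. The *Dag1* promoter holds 3 GC boxes and a CCAAT box in capitals. A GC box occurs in 21 of the member promoters (56.8%) and in 34.7% of RefSeq promoters. In windows of 300 bp around accessible promoter intervals the order was the other way, with a GC box in 56.2% of the member promoter intervals and 64.5% of all promoter intervals. In the *Capn3* promoter a MEF2 element spans positions 179 to 188, between the 2 intervals that the capitals mark, and it is the only MEF2 element in the 37 member promoters (0.536% of RefSeq promoters hold one). The *Des* promoter holds 2 E-boxes and 2 GC boxes. The GC content of these promoters ran from 44.3% in full-length *Dmd* to 69.3% in *Dag1*. These matches describe the letters only.

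Levels are given as RPKM, the CPM of an interval divided by its width in kilobases. The authors called peaks with each end spread over 73 bp, and 37 of the 137 member intervals are narrower than this, down to 14 bp, so the RPKM of a narrow interval rests on few ends, can include extended ends from beside it, and is not comparable with that of a wide one. Member promoter intervals had a median of 144 RPKM and a median width of 151 bp, against 133 RPKM and 193 bp over all 20973 promoter intervals. The other member intervals had a median of 91.1 RPKM and 85 bp, against 100 RPKM and 89 bp over all intervals away from promoters. The midpoint lay within 200 bp of the nearest TSS in 53 of the 80 promoter intervals, and upstream of it in 47. In windows of 300 bp around the midpoint, the median GC content was 62.7% in member promoter intervals and 64.0% in all promoter intervals. The observed to expected ratio of CpG was 0.541 and 0.790. The median GC content was 47.0% in the other member intervals. Of the 137 intervals, 24 also fall to a gene that is no member, and 23 overlap another interval of the table, so that ends in the shared bases are counted in each.

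**Figure D1:**
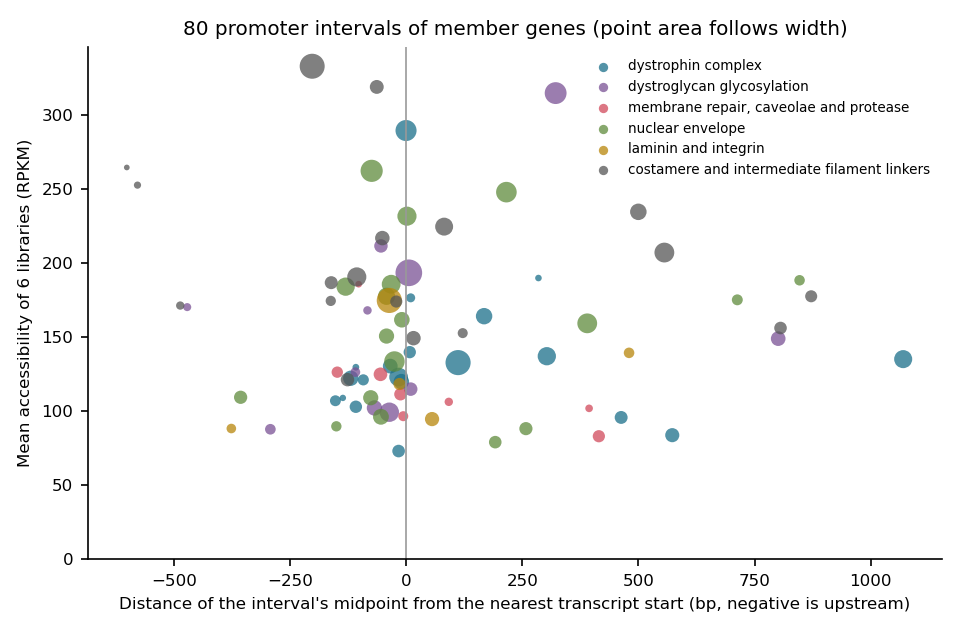
Mean accessibility over 6 libraries (RPKM) of the 80 promoter intervals of member genes against the distance of their midpoint from the nearest TSS in bp, colored by role, with point area following width. The intervals gather near the TSS, with 53 of 80 within 200 bp, and 2 small points of *Plec* (14 and 32 bp wide) stand above 250 RPKM farther upstream.

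In the order of their most accessible promoter interval, the 28 genes ran from *Vcl*, which encodes the actin-binding linker vinculin, at 355 ± 40.2 RPKM in CTL and 311 ± 32.7 RPKM in H2A.Z dKO (SD, n = 3), to *Lama2*, the laminin α2 chain of the muscle basement membrane, at 104 ± 17.5 and 84.5 ± 23.1 RPKM. Below *Vcl* stood *Plec*, *Pomt2*, *Dag1*, *Sun1* and *Lmna*, and 19 of the 28 lay above the median of all promoter intervals. This order is one of RPKM over widths of 22 to 639 bp, and in CPM, which does not divide by width, 15 of the same 28 intervals lay above the median. The narrow ones moved most, that of *Sgca* (24 bp) from above 80.7% of promoter intervals in RPKM to above 5.93% in CPM, *Capn3* (25 bp) from 79.3% to 6.19%, *Dmd* (26 bp) from 47.5% to 2.63% and *Pomt1* (50 bp) from 71.7% to 18.4%, while *Plec* (162 bp) went from 98.7% to 78.0%. All 27 pairs of neighbors in this order overlapped between libraries. The promoter of *Vcl* lay above 99.1% of all promoter intervals in RPKM and 99.2% in CPM, that of *Lama2* above 18.5% and 37.8%.

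**Figure D2:**
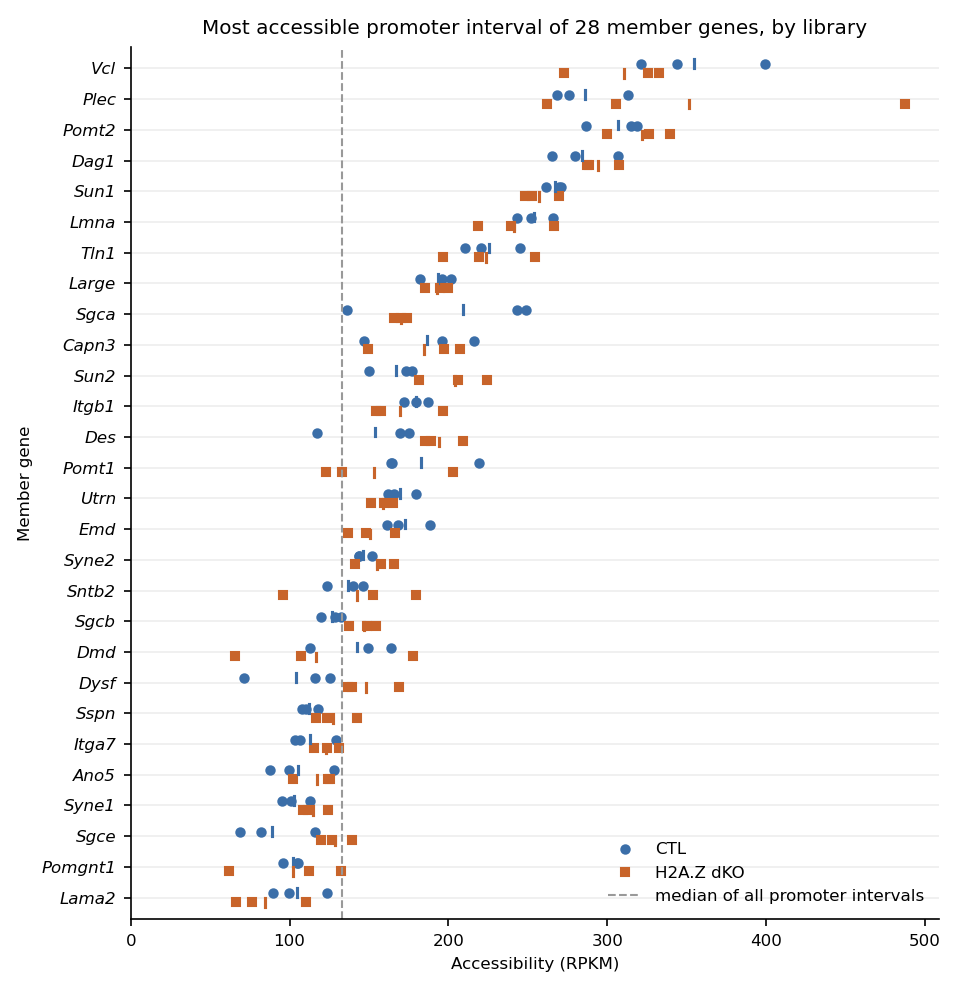
Accessibility (RPKM) of the most accessible promoter interval of 28 member genes in each of the 3 CTL libraries (circles) and 3 H2A.Z dKO libraries (squares), with group means as vertical ticks and the median of all promoter intervals, 133 RPKM, as a dashed line. *Vcl* is the highest and *Lama2* the lowest in RPKM, and neighbors in the order overlap.

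The test across all intervals was edgeR's quasi-likelihood test, and a log2 fold change is H2A.Z dKO against CTL, given with its standard error (SE) or its 95% confidence interval. None of the 137 intervals passed an adjusted p of 0.05, and none did among the 39768 intervals (0%); the smallest adjusted p was 0.972 among members and 0.615 overall (edgeR). At an unadjusted p under 0.05, there were 13 member intervals (9.49%), against a background of 4.95% of all intervals. Of these, 7 were higher in H2A.Z dKO, where the background is 2.64%, and 6 lower, where it is 2.31%. The 2 *Vcl* intervals among them overlap and so share ends, and DESeq2 gave 4 member intervals, with a background of 1.9%. RPKM of the groups did not overlap in 12 member intervals that were higher in H2A.Z dKO (8.76%, background 5.26%) and 5 that were lower (3.65%, background 5.3%). Without CTL replicate 2, 7 member intervals were at an unadjusted p under 0.05, not all of them among the 13, where the background was 4.21%. Without H2A.Z dKO replicate 1 there were 13, but not the same ones. The background was then 7.95%, nearer to the 9.49% of the members. The 22-bp *Dysf* interval (unadjusted p = 0.133) and the 361-bp *Lama2* interval (0.158), for example, were not among them (edgeR).

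**Figure D3:**
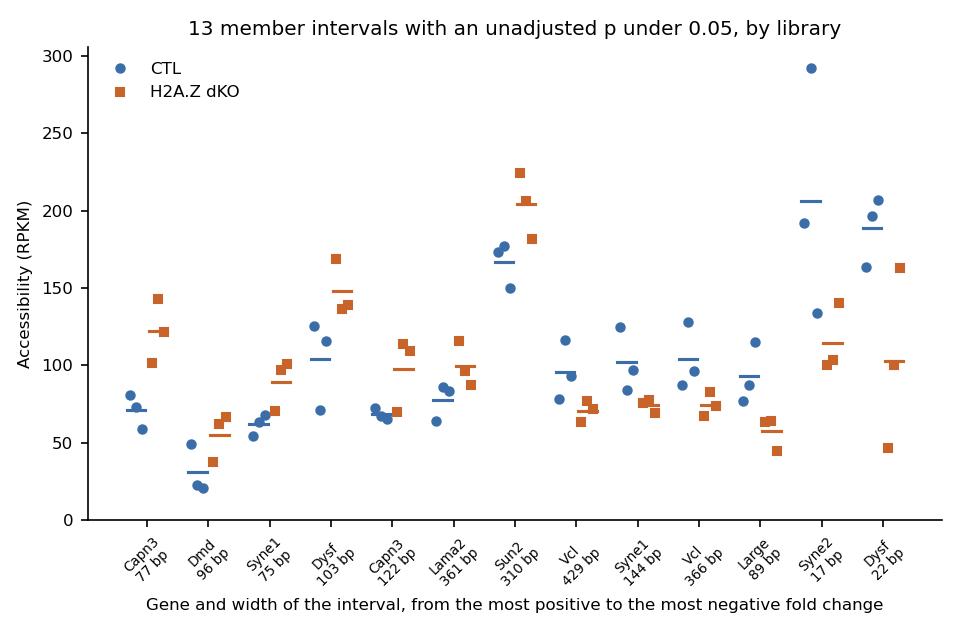
Accessibility (RPKM) in each CTL (circles) and H2A.Z dKO library (squares) for the 13 member intervals with an unadjusted p under 0.05 (edgeR), ordered by log2 fold change from *Capn3* (0.74) to *Dysf* (−0.88), with group means as bars. None passed adjustment, and in 3 of them (*Dmd*, the 122-bp *Capn3* interval and *Syne2*) the groups overlap.

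Log2 fold changes of member intervals had a median of 0.07, and 82 of 137 were above 0 (59.9%), against a median of 0.01 and 52.5% over all intervals. The median was 0.09 in promoter intervals, of which 51 of 80 were above 0, and 0.03 elsewhere. The precision of these values was limited: changes over 2-fold in either direction fell outside the 95% confidence interval for 125 of the 137 (91.2%; 91.4% of all intervals), and changes over 1.5-fold for 62 (45.3%; 49.6% of all). For promoter intervals, 2-fold changes fell outside in 78 of 80. The deposited table also names the group in which an interval was called as a peak. Of the member intervals, 46 were called in both (33.6%; 38.7% of all intervals), 63 in the knockout alone (46.0%; 43.4%) and 28 in the control alone (20.4%; 17.9%).

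**Figure D4:**
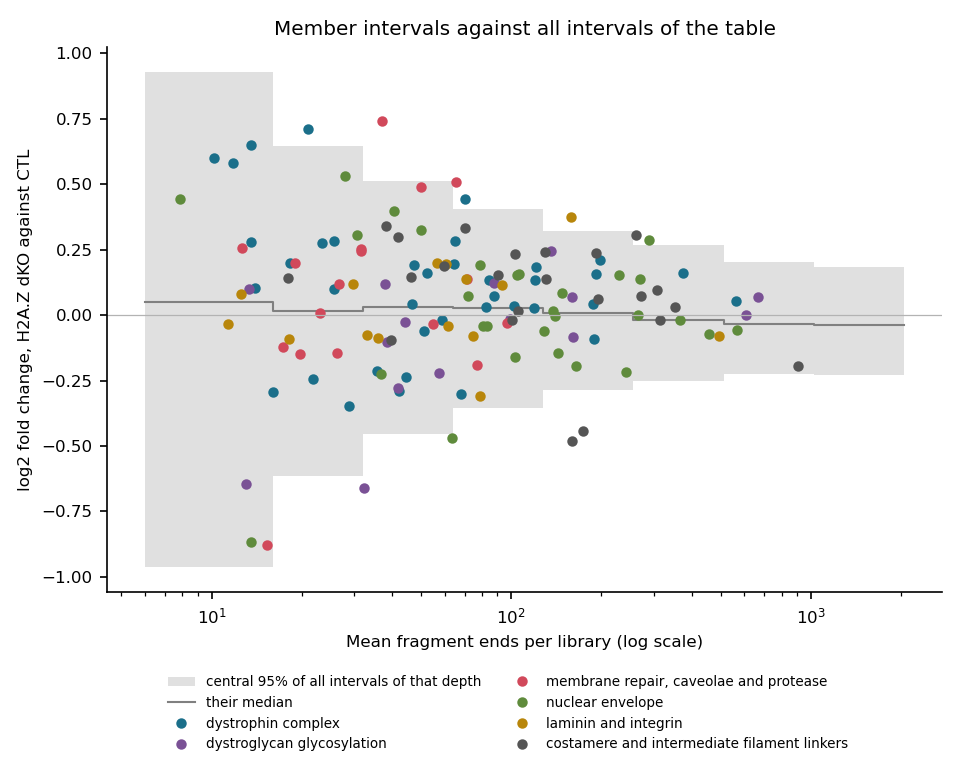
Log2 fold change (H2A.Z dKO against CTL) of the 137 member intervals, colored by role, against their mean fragment ends per library (log axis), with the central 95% of all intervals of that depth as a gray band and their median as a line. In all, 11 member intervals lie outside the band, 7 above and 4 below, and the band narrows as counts grow.

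The dystrophin complex held 38 intervals in 11 genes. *Dmd*, on chromosome X (ENSMUSG00000045103), spans 2257272 bp and held 3. The first, chrX:80194088-80194113, is 26 bp wide and lies with its midpoint 108 bp upstream of the start of Dmd-014, just outside the annotated gene. It held 18, 18 and 15 ends in CTL and 10, 21 and 14 in H2A.Z dKO, or 113, 150 and 164 RPKM against 65.5, 178 and 107 RPKM. The H2A.Z dKO libraries enclosed the CTL values. The log2 fold change was −0.29 (SE 0.33; adjusted p = 0.985 by edgeR's quasi-likelihood test), and 0.01 without H2A.Z dKO replicate 1. The third interval, chrX:82293553-82293683, lies in a noncoding exon at the start of Dmd-002, one of the short transcripts, 2099 kb downstream and after 62 of the 79 exons of Dmd-001. It held 55, 39 and 33 ends in CTL and 61, 49 and 47 in H2A.Z dKO. This is 68.2 ± 3.65 RPKM and 77.6 ± 5.56 RPKM (SD, n = 3), with CTL replicate 3 just above H2A.Z dKO replicate 3 and all other CTL libraries below, and with a log2 fold change of 0.19 (95% confidence interval −0.25 to 0.63). The second, in an intron at chrX:80201306-80201401, had the lowest mean RPKM of all member intervals. It counted 29, 10 and 7 ends in CTL and 21, 27 and 32 in H2A.Z dKO (30.9 ± 16.1 and 55.1 ± 15.7 RPKM; SD, n = 3), and CTL replicate 1 lay above H2A.Z dKO replicate 1. Its log2 fold change was 0.71 (SE 0.32, unadjusted p = 0.0392, adjusted p = 0.972, edgeR), and 1.31 without CTL replicate 1.

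*Utrn* encodes utrophin, the autosomal relative of dystrophin, which is enriched at the neuromuscular junction. Of its 6 intervals, 3 were promoter intervals at the start of Utrn-204. The interval over a noncoding exon, chr10:12588878-12589110, measured 162, 180 and 166 RPKM in CTL and 165, 159 and 151 RPKM in H2A.Z dKO (log2 fold change −0.09; 95% confidence interval −0.39 to 0.20). The one just upstream, chr10:12589182-12589381, measured 112, 113 and 138 RPKM against 106, 147 and 116 RPKM (log2 fold change 0.03, −0.34 to 0.39). The third, intronic at chr10:12587951-12588235, measured 114, 134 and 138 RPKM against 181, 121 and 122 RPKM. Only H2A.Z dKO replicate 1 was high there, and the log2 fold change was 0.16 with that library and −0.09 without it, and neither *Utrn* nor *Dmd* showed a separation of the groups at a promoter.

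*Dag1* had the strongest promoter of the complex, a 393-bp interval centered on the start of Dag1-201 at chr9:108166058-108166450. It held 638, 558 and 387 ends in CTL and 709, 514 and 570 in H2A.Z dKO, which is 265, 307 and 280 RPKM against 307, 287 and 289 RPKM. The groups overlapped, with a log2 fold change of 0.05 (95% confidence interval −0.16 to 0.27). This promoter lay above 97.5% of all promoter intervals. Sarcoglycan genes held 5 intervals in *Sgca*, 3 in *Sgcb*, 5 in *Sgcd* and 2 in *Sgce*, and the sarcospan gene *Sspn* held 2. All 5 intervals of *Sgca*, the sarcoglycan expressed mainly in muscle, were promoter intervals, at 103 to 190 RPKM, and their log2 fold changes ran from −0.24 to 0.20. In *Sgcb*, 2 of the 3 overlapping promoter intervals were higher in every H2A.Z dKO library than in every CTL library, with log2 fold changes of 0.21 and 0.16. These 2 overlap each other and so share ends, and 5.17% of all promoter intervals were higher in this way. The *Sgce* promoter interval, shared with *Peg10*, is 22 bp wide and was also higher in each H2A.Z dKO library. The *Sgcd* intervals, 65.1 to 163 RPKM, were intronic. Syntrophin and dystrobrevin genes held 1 interval in *Sntb1*, 6 in *Sntb2* and 2 in *Dtna*, and neither *Sntb1* nor *Dtna* had a promoter interval. Across the complex, 28 of 38 log2 fold changes were above 0, with a median of 0.12, against 52.5% and 0.01 over all intervals. None passed the test.

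The 4 genes of dystroglycan glycosylation held 15 intervals. *Pomt2*, which with *Pomt1* starts the sugar chain by adding mannose, had the strongest promoter interval of the group. It lies over a coding exon at chr12:88488318-88488741, within 1 kb of a TSS of *Gstz1* too, and measured 319, 315 and 287 RPKM in CTL and 340, 327 and 300 RPKM in H2A.Z dKO (log2 fold change 0.07, 95% confidence interval −0.14 to 0.28). *Pomt1*, *Pomt2* and *Pomgnt1* held 3 intervals each, and all 9 fall to a second gene as well. *Large*, the enzyme that extends the chain with the repeat bound by laminin, held 6 intervals and a 639-bp promoter interval at 193 RPKM in both groups (SD 10.3 in CTL and 7.11 in H2A.Z dKO, n = 3). An intron interval 39156 bp downstream of the start of Large-201, chr8:75837318-75837406, measured 77.1, 87.4 and 115 RPKM in CTL and 63.1, 64.2 and 44.8 RPKM in H2A.Z dKO, so that every CTL library was above every H2A.Z dKO library. Its log2 fold change was −0.66 (SE 0.25, unadjusted p = 0.0154, adjusted p = 0.972, edgeR), on 20 to 42 ends per library. A 17-bp interval inside it gave −0.65 (SE 0.33), and there the groups overlapped. Over the group, 6 of 15 log2 fold changes were above 0 (median −0.02).

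The genes of membrane repair, caveolae and protease held 17 intervals: 10 in *Dysf*, whose product dysferlin patches torn sarcolemma, 6 in *Capn3*, a calcium-dependent protease of the fiber, and 1 in *Ano5*, a membrane protein of the anoctamin family. *Capn3* (ENSMUSG00000079110) gave the most positive log2 fold change of all 137 intervals. The interval covers the TSS of Capn3-201 in a noncoding exon at chr2:120289284-120289360, the second run of capitals above, and held 38, 26 and 16 ends in CTL and 46, 50 and 47 in H2A.Z dKO. These are 80.7, 72.9 and 59.0 RPKM against 102, 143 and 122 RPKM, with no overlap. The log2 fold change was 0.74 (SE 0.24, 95% confidence interval 0.25 to 1.24, unadjusted p = 0.00498), and the adjusted p was 0.972 (edgeR). The value stayed between 0.63 and 0.86 when single libraries were left out, and it was the only interval of the 13 whose unadjusted p was under 0.05 in each of these 6 fits (edgeR). This interval also had the smallest unadjusted p of the 13 in the full fit. The 6 fits share its libraries, so they are no separate support. The 25-bp interval just upstream, the first run of capitals and the promoter interval of the group with the highest RPKM, but above only 6.19% of promoter intervals in CPM, measured 196, 147 and 216 RPKM in CTL and 198, 149 and 207 RPKM in H2A.Z dKO, with a log2 fold change of 0.01 (SE 0.26). Another, at chr2:120289963-120290084 in an intron, measured 72.4, 67.3 and 65.2 RPKM against 69.8, 113 and 109 RPKM. There, replicates 2 and 3 of H2A.Z dKO were high and replicate 1 was not (log2 fold change 0.49, unadjusted p = 0.0442, adjusted p = 0.972, edgeR). All 6 *Capn3* intervals had log2 fold changes above 0.

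*Dysf* held the most negative value of all member intervals and also a positive one. A 22-bp interval in an intron, chr6:84011458-84011479, counted 22, 20 and 16 ends in CTL and 6, 10 and 18 in H2A.Z dKO (163, 196 and 207 RPKM against 46.4, 99.9 and 163 RPKM). The groups did not overlap, by a small margin. The log2 fold change was −0.88 (SE 0.34, unadjusted p = 0.0177, adjusted p = 0.972, edgeR), −0.50 without H2A.Z dKO replicate 1 and −1.39 without H2A.Z dKO replicate 3. A promoter interval 148 bp upstream of the start of Dysf-011 lies at chr6:84160278-84160380, near the 3′ end of the gene, which runs from 83958584 to 84161054. It measured 125, 71.3 and 116 RPKM in CTL and 169, 137 and 139 RPKM in H2A.Z dKO, again with no overlap (log2 fold change 0.51, SE 0.23, unadjusted p = 0.0354, adjusted p = 0.972, edgeR). CTL replicate 2 was the low library there, and without it the value was 0.30. The promoter interval at the start of Dysf-010, chr6:83969246-83969401, measured 125 ± 20.7 RPKM in CTL and 125 ± 31.5 RPKM in H2A.Z dKO (SD, n = 3). Of the 10 *Dysf* intervals, 3 had log2 fold changes above 0, and in the group as a whole 10 of 17 did (median 0.12).

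The genes of the nuclear envelope held 29 intervals: 6 in *Lmna* (lamins A and C), 2 in *Emd* (emerin), 10 in *Syne1* and 5 in *Syne2* (nesprins, which reach from the envelope to the cytoskeleton), and 1 in *Sun1* and 5 in *Sun2*, whose products hold nesprins from inside. The *Sun1* promoter, 437 bp at chr5:139676299-139676735, was the highest of them, at 271, 269 and 261 RPKM in CTL and 270, 248 and 252 RPKM in H2A.Z dKO (log2 fold change −0.06, 95% confidence interval −0.27 to 0.15). All 6 *Lmna* intervals were promoter intervals, at 109 to 248 RPKM, with log2 fold changes of −0.07 to 0.19. Both *Emd* intervals, on chromosome X, had negative values, −0.22 and −0.20. A *Sun2* promoter interval, chr15:79572422-79572731, shared with *Gm16576*, measured 173, 177 and 150 RPKM in CTL and 224, 206 and 182 RPKM in H2A.Z dKO. Every H2A.Z dKO library was above every CTL library (log2 fold change 0.29, SE 0.13, unadjusted p = 0.0376, adjusted p = 0.972, edgeR, and 0.18 without H2A.Z dKO replicate 1), and all 5 *Sun2* intervals had positive values.

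*Syne1* showed 1 interval at an unadjusted p under 0.05 in each direction. A promoter interval over a coding exon, chr10:5277664-5277807, shared with *Gm10097*, measured 125, 84.0 and 96.7 RPKM in CTL and 75.7, 77.8 and 69.1 RPKM in H2A.Z dKO, and all CTL libraries were above (log2 fold change −0.47, SE 0.21, unadjusted p = 0.0378, adjusted p = 0.972, edgeR). Without CTL replicate 1, the highest library, it was −0.27. An intron interval, chr10:5138385-5138459, measured 54.5, 63.4 and 68.2 RPKM against 70.4, 96.7 and 101 RPKM (log2 fold change 0.53, SE 0.25, unadjusted p = 0.0458, adjusted p = 0.972, edgeR). In *Syne2* a 17-bp intron interval, chr12:76954822-76954838, counted 20, 23 and 8 ends in CTL and 10, 8 and 12 in H2A.Z dKO. CTL replicate 3 lay within the H2A.Z dKO values (log2 fold change −0.87, SE 0.33, unadjusted p = 0.0166, adjusted p = 0.972, edgeR), and without CTL replicate 2 the value was −0.56. Over the group, 14 of 29 values were above 0, with a median of −0.00.

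Laminin and integrin genes held 15 intervals, 3 of them in *Itgb1*. The *Itgb1* promoter (integrin β1), 567 bp at chr8:131209234-131209800, was the highest of their promoters, at 187, 172 and 179 RPKM in CTL and 197, 157 and 155 RPKM in H2A.Z dKO (log2 fold change −0.08, 95% confidence interval −0.32 to 0.16). *Itga7*, the integrin α7 chain that pairs with β1 in muscle, held 2 intervals with values of 0.12 and 0.14. *Lama2* held 10, of which 8 were intronic. One of these, 361 bp at chr10:26783418-26783778, measured 63.8, 86.2 and 83.4 RPKM in CTL and 116, 96.2 and 87.2 RPKM in H2A.Z dKO, with a gap of about 1 RPKM between the groups (log2 fold change 0.38, SE 0.17, unadjusted p = 0.0396, adjusted p = 0.972, edgeR). It was 0.24 without CTL replicate 1 and 0.23 without H2A.Z dKO replicate 1. Over the group 7 of 15 values were above 0 (median −0.03).

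The costamere and intermediate filament linkers held 23 intervals, 3 of them in *Vcl* and 13 in *Plec*, whose product plectin links desmin filaments to membrane and Z-disc. The *Vcl* promoter (ENSMUSG00000021823; chr14:21748173-21748732, 560 bp, noncoding exon) was the most accessible of all member intervals. It held 1100, 891 and 787 ends in CTL and 898, 848 and 916 in H2A.Z dKO, or 321, 344 and 399 RPKM against 273, 333 and 326 RPKM, so the groups overlapped (log2 fold change −0.19, SE 0.10, adjusted p = 0.972, edgeR). At the other end of *Vcl*, 2 overlapping intervals lie in a noncoding exon that is also within *Ap3m1*. The narrower, chr14:21851361-21851726, measured 87.5, 128 and 96.2 RPKM in CTL and 67.0, 82.9 and 74.0 RPKM in H2A.Z dKO (log2 fold change −0.48, SE 0.17, unadjusted p = 0.0091, adjusted p = 0.972, edgeR). The wider starts at 21851298, contains the narrower and gave −0.44 (unadjusted p = 0.0127, edgeR). Without CTL replicate 2 these values were −0.30 and −0.27. In both, every CTL library was above every H2A.Z dKO library, and the summed endothelial markers were also lower in every H2A.Z dKO library (6 of 6 genes with a negative log2 fold change, median −0.20). Their part in the *Vcl* values was not tested.

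*Flnc*, the muscle filamin, had no promoter interval, and its only interval, 40 bp in an intron at chr6:29386622-29386661, had the highest RPKM of the member intervals away from promoters, though wider ones, such as a 242-bp interval of *Plec*, held more ends. It measured 241, 221 and 185 RPKM in CTL and 311, 181 and 224 RPKM in H2A.Z dKO (log2 fold change 0.15, 95% confidence interval −0.36 to 0.65). Without H2A.Z dKO replicate 1, which was the highest library, the value was −0.13. *Des* held 3 promoter intervals, 121 to 174 RPKM, and the upstream one, the first run of capitals in its sequence, was higher in every H2A.Z dKO library (154 ± 31.9 RPKM in CTL and 194 ± 12.8 RPKM in H2A.Z dKO; SD, n = 3; log2 fold change 0.33). Summed over its 3 intervals, *Des* had a log2 fold change of 0.20, and 0.05 to 0.28 with single libraries left out. CTL replicate 2 was the lowest library of this sum, at 43.4 CPM, against 60.3 and 60.8 CPM in CTL replicates 1 and 3. *Tln1* (talin) held 3, all shared with *Creb3*, at 153 to 224 RPKM. Of the 13 *Plec* intervals 11 had values above 0, and in the group 17 of 23 did, with a median of 0.14.

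When counts were summed over all intervals of a gene, none of the 32 member genes passed an adjusted p of 0.05, nor did any of 13734 genes (0%); the smallest adjusted p was 0.969 (edgeR). At an unadjusted p under 0.05 there were 3 member genes, against a background of 4.32%. *Vcl* summed to 245, 289 and 299 CPM in CTL (278 ± 28.5; SD, n = 3) and to 204, 249.7 and 240.4 CPM in H2A.Z dKO (232 ± 23.9), overlapping, with a log2 fold change of −0.26 (SE 0.11, unadjusted p = 0.029, edgeR). In this sum, ends shared by the 2 nested *Vcl* intervals that also lie within *Ap3m1* are counted in each of them. *Capn3* summed to 33.5, 29.4 and 35.2 CPM (32.7 ± 3.01) and to 32.3, 50.5 and 45.8 CPM (42.9 ± 9.44), also overlapping, with 0.39 (SE 0.16, unadjusted p = 0.0303, edgeR). *Sun2* summed to 168 ± 9.61 and 193 ± 7.90 CPM without overlap, with 0.20 (SE 0.09, unadjusted p = 0.0395, edgeR). Leaving out CTL replicate 2 left none of the 32 under 0.05 unadjusted (background 3.12%, edgeR), leaving out CTL replicate 3 or H2A.Z dKO replicate 2 left 1 each (2.39% and 5.36%), and leaving out H2A.Z dKO replicate 1 gave 4 (7.25%).

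In 27 of the 32 gene sums the 95% confidence interval excluded changes over 1.5-fold in either direction. *Dmd* summed to 15.6 ± 1.10 and 18.5 ± 2.83 CPM (log2 fold change 0.24, −0.14 to 0.62), *Utrn* to 133 ± 8.20 and 134 ± 3.70 CPM (0.02, −0.17 to 0.22) and *Dag1* to 125 ± 7.50 and 131 ± 2.08 CPM (0.07, −0.12 to 0.26). With single libraries left out, the *Dmd* value ranged from 0.13 to 0.34 and the *Dag1* value from 0.04 to 0.12. The widest interval was that of *Sntb1*, which holds a single 34-bp interval with 6 to 18 ends per library (0.66, −0.05 to 1.37). Its log2 fold change ranged from 0.41 to 0.84 with single libraries left out. In CPM, *Sgcb*, *Sspn*, *Sntb1*, *Sun2* and *Plec* were higher in every H2A.Z dKO library, which makes 5 of 32 against a background of 4.49%, and none was lower in every one (background 6.07%). All member intervals together took 0.321% ± 0.00438 of the ends in CTL and 0.327% ± 0.00190 in H2A.Z dKO (SD, n = 3). Of these ends, 83.1% lay in promoter intervals in H2A.Z dKO replicate 1 and 79.0% to 80.7% in the other libraries.

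**Figure D5:**
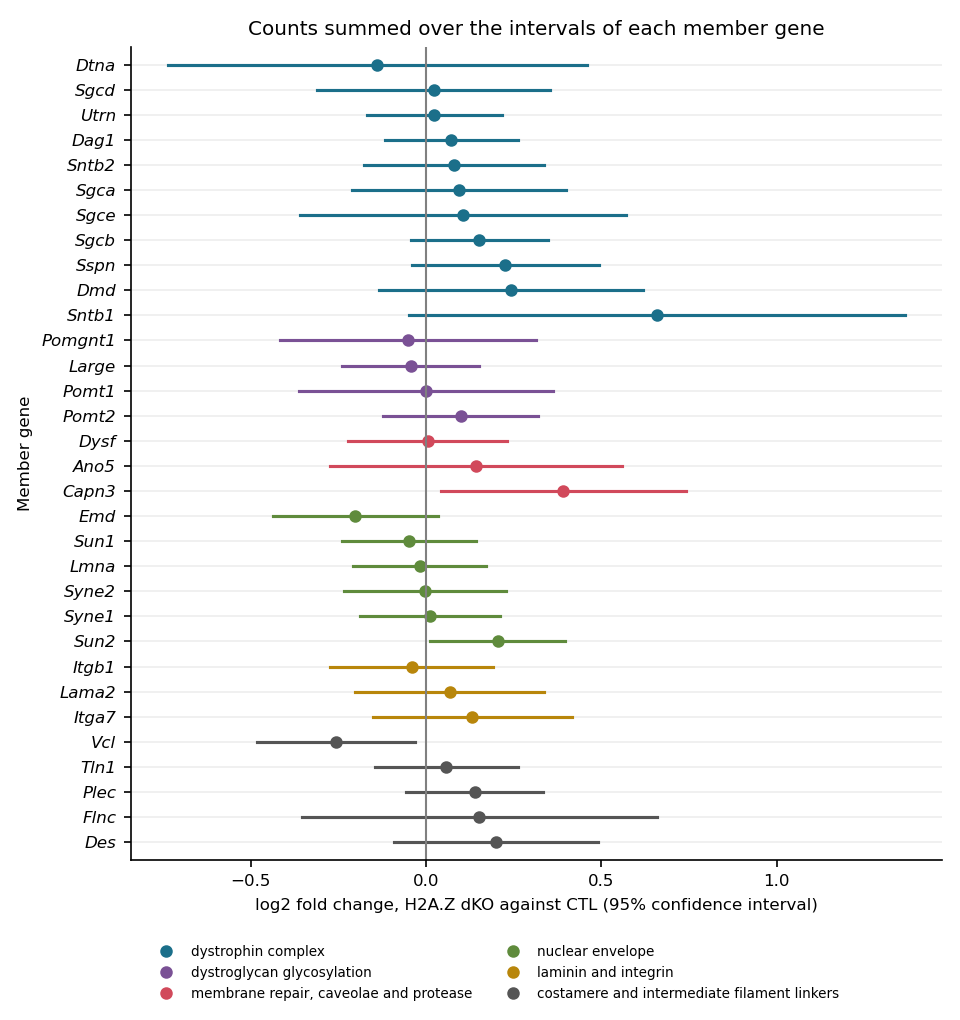
Log2 fold change (H2A.Z dKO against CTL) of counts summed over the intervals of each of 32 member genes, colored by role, with 95% confidence intervals derived from the edgeR fit. The confidence intervals of *Capn3*, *Sun2* and *Vcl* leave out 0 before adjustment, and that of *Sntb1* is the widest.

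The same sums were made for a list of 70 other genes of these structures (among them further syntrophins, glycosylation enzymes, lamins, annexins, integrins, laminins and type VI collagens). Of these, 61 held an interval. None passed adjustment, 38 of the 61 log2 fold changes were above 0 and the median was 0.06, against 0.00 over all genes. At an unadjusted p under 0.05 there were 4 (6.56%), or 2 in each direction, near the background of 4.32% of all genes (smallest unadjusted p = 0.011, adjusted p = 0.969, edgeR). *Col6a1* and *Col6a3*, chains of the collagen VI microfibrils around the fiber, had log2 fold changes of 0.59 (SE 0.20) and 0.25 (SE 0.09), and *Col6a3* measured 73.2 ± 1.34 CPM in CTL and 86.7 ± 1.66 CPM in H2A.Z dKO (SD, n = 3). The *Col6a1* value ranged from 0.36 to 0.75 with single libraries left out. Its highest library was H2A.Z dKO replicate 1, at 45.1 CPM, against 29.7 and 31.5 CPM in H2A.Z dKO replicates 2 and 3. *Dpm2*, a subunit of dolichol-phosphate mannose synthase, and *Lims2*, an adaptor of the integrin-linked kinase, had −0.37 (SE 0.14) and −0.35 (SE 0.14). The fibroblast markers *Col1a2* (0.32, SE 0.18) and *Col3a1* (0.36, SE 0.20) were also on the higher side. With single libraries left out, these 2 ranged from 0.18 to 0.44 and from 0.14 to 0.62. Of the 4 fibroblast genes with an interval, 3 had log2 fold changes above 0 (median 0.19), and the part of fibroblast genes in the collagen VI values was not tested. The CPM of the groups did not overlap in 10 of the 61 genes, these 4 included, of which 6 were higher (9.84%, background 4.49%) and 4 lower (6.56%, background 6.07%) in H2A.Z dKO.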

How the data were processed

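Nuclei of 3 CTL and 3 H2A.Z dKO samples were assayed by ATAC-seq. The authors trimmed reads (Trimmomatic), aligned them to mm9 (Bowtie, local mode), removed duplicates (Picard), shifted ends for Tn5, called peaks with MACS2 on fragment ends spread over 73 bp and counted the shifted, extended ends in each interval of a union of peaks; these counts, as deposited, are not normalized. Versions are not given in the sources used here. The deposited table also holds the authors' DESeq2 comparison (mean signal, log2 fold changes, p-values and the Wald score), which was not used.

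Intervals were assigned to GENCODE vM1 genes by overlap or by a distance of up to 1 kb from a TSS. Counts of all 39768 intervals, or summed over the intervals of 13734 genes, were fitted with edgeR 4.0.16 (TMM, robust quasi-likelihood test, group as the only term, Benjamini-Hochberg adjustment over the whole table), in R 4.3.3. Standard errors were derived from edgeR's log2 fold change and F statistic, and confidence intervals from these with a t distribution. RPKM and CPM used the library totals over intervals, and RPKM also the interval width. The procedure was tested on simulated data. The alternatives were DESeq2 1.42.0, limma 3.58.1 voom, other scalings, a minimum of 20 counts, a replicate block, the midpoint rule and leaving out each library. Values in every library are given for the promoter intervals of *Dmd*, *Utrn* and *Dag1*, the strongest promoter interval of each role, the intervals with the highest and lowest RPKM or log2 fold change, the strongest interval away from promoters, those at an unadjusted p under 0.05, and the higher and the lower gene sum of smallest p. The members and lists were chosen with earlier results of these data known. Depth was 3520008 to 6117245 ends per library. Promoter sequences came from RefSeq (GRCm38.p6).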

Additional observations from a re-analysis of the deposited data

How the results depend on the processing

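No member interval or member gene passed an adjusted p of 0.05 under any alternative run. By edgeR's quasi-likelihood test, 13 intervals were at an unadjusted p under 0.05; there were 4 by DESeq2 (1.9% of all intervals in the same fit), 11 by limma voom (5.02%), 9 of 104 with at least 20 counts in every library (3.5%), and 7 to 13 when single libraries were left out, lowest without CTL replicate 2 (4.21%) and highest without H2A.Z dKO replicate 1 (7.95%), with shares of all intervals from 3.18% to 7.95%. For gene sums the count was 3, and 0 to 4 when single libraries were left out (0 without CTL replicate 2, 1 without CTL replicate 3 or H2A.Z dKO replicate 2), with shares of all genes from 2.39% to 7.25%. Samples with the same replicate number correlated at −0.0977 to −0.0323 in their deviations, so the numbers were not taken as pairs. With the number as a replicate block, 9 intervals (4.42% of all intervals) and 2 genes (3.69% of all genes) were at an unadjusted p under 0.05, and the log2 fold change of the 25-bp *Capn3* interval was −0.0054.

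Values near 0 changed sign when single libraries were left out. The 25-bp *Capn3* interval (0.01) was −0.13 without CTL replicate 2, −0.07 without H2A.Z dKO replicate 1 or 3, and 0.14 at the highest. Without H2A.Z dKO replicate 1, the first *Dmd* interval (−0.29) was 0.0063, the intronic *Utrn* interval (0.16) −0.089 and the *Flnc* interval (0.15) −0.13, with the other ends of their ranges at −0.69, 0.27 and 0.31, all without H2A.Z dKO replicate 2. The upstream *Utrn* interval (0.03) ranged from −0.11 without H2A.Z dKO replicate 2 to 0.12, being −0.03 without CTL replicate 1 and −0.02 without CTL replicate 2. The sum over *Utrn* (0.02) ranged from −0.029 to 0.060. The difference in the floxed segment of *H2afz* (−1.11 CPM) was 0.148 without CTL replicate 2 and lowest, at −2.62, when CTL replicate 3 was left out. The cause of these changes was not tested. Intervals with few counts are limited most: 33 of the 137 member intervals held fewer than 20 counts in some library.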
